A study of Mus musculus with 6 samples.

Results

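Heat shock proteins and chaperones were read in the livers of mice without hepatic insulin receptor (Liver Insulin Receptor Knockout, LIRKO) and of their Flox littermates. The genes were taken by symbol: those whose names begin with *Hsp* (other than *Hspg2*), *Dnaja*, *Dnajb* or *Dnajc* with a number, *Cct2* to *Cct8*, *Tcp1*, *Pdia* with a number, *P4hb*, *Calr* and *Canx*. Where a gene had several probe sets, the brightest over all 6 arrays stood for it. This gave 63 of the 8251 genes that could be read by a probe set with 1 gene symbol, of which 42 were assigned to the cytosol, 14 to the endoplasmic reticulum (ER) and 7 to mitochondria. The Entrez IDs of all 63 still carry the same symbols in the current RefSeq table. A few are in the group by symbol rather than by a chaperone role, such as *Hspb11*, which encodes a protein of intraflagellar transport.

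Chaperones bind newly made or unfolded proteins and help them to fold, and each compartment has its own set. In the cytosol, HSP70 and HSP90 proteins work with J proteins, which hand substrates to HSP70, and with the ring-shaped chaperonin CCT. In the ER, BiP, GRP94, the lectin chaperones and the protein disulfide isomerases fold secreted proteins, which hepatocytes make in large amounts, while mitochondria have an HSP70 and a chaperonin of their own. The transcription factor HSF1 induces many cytosolic members through heat shock elements, and the unfolded protein response induces many ER members through ER stress elements.

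Liver RNA of non-fasted male mice fed chow ad libitum was hybridized to 6 Affymetrix MG-U74Av2 arrays. The 3 Flox arrays held RNA of mice labelled IR flox/flox albumin:CRE -, and the 3 LIRKO arrays that of mice labelled IR flox/flox albumin:CRE +, so that both groups carried floxed insulin receptor alleles and LIRKO also carried Cre driven by the albumin promoter, which is active in hepatocytes. The labels give an age of 2 to 3 months for both groups. Each array held RNA pooled from 2 to 3 mice of a mixed genetic background, so that replicate error here is that of pools, and 3 arrays a group limit the precision. The values are log2 signals after robust multichip averaging (RMA), and a difference of 1 is a factor of 2. Signals of different probe sets are not on 1 scale of transcript amount.

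LIRKO 2 and LIRKO 3 stood apart from the other 4 arrays. Their signals spread less over all probe sets (SD 1.72 and 1.78, against 1.96 to 2.01 on the others). When probe sets were divided by mean Flox signal into 10 groups of equal size, the brightest group read 1.09 lower than Flox on LIRKO 2 and 0.89 lower on LIRKO 3 at the median, and its LIRKO 1 median differed from Flox by no more than 0.02. This touched the chaperones directly, since 47 of the 63 lay above the median of all probe sets by Flox signal and 15 lay in the brightest group. For that reason the main results are given on all 3 LIRKO arrays. For many bright genes they are also given relative to the median of the gene's own signal group on the same array. Some other genes are given only by their log2 fold change over all 3 LIRKO arrays, which can hide a split between arrays. Of 8 hepatocyte markers, 7 were measured, and all 7 lay above the 75th percentile of Flox signals. All 8 markers of Kupffer cells and macrophages were above the Flox mean on LIRKO 1, by 0.38 at the median, while their medians were -0.71 on LIRKO 2 and -0.32 on LIRKO 3. The summed linear signal of these 8 ranged from 1510 to 2533 on the Flox arrays and from 1219 to 2771 on the LIRKO arrays. In whole liver, fewer cells of a type and less RNA per cell cannot be told apart.

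No chaperone gene differed between LIRKO and Flox liver at an adjusted p under 0.05, and the ER members had the lowest median of the 3 compartments. The median log2 fold change was -0.36 over the 14 ER genes, -0.09 over the 42 cytosolic genes and -0.26 over the 7 mitochondrial genes, against -0.01 over all 8251 genes. In limma with Benjamini-Hochberg adjustment, 0 of the 63 members passed (smallest adjusted p = 0.237), where 10 of the 8251 genes did (0.121%). Each direction held 5 of these 10 genes, or 0.0606% each. The methods' t-test gave 0 as well, with 6 members at an unadjusted p under 0.05 (9.52%, against 6.17% of all genes). By limma, 17 members had an unadjusted p under 0.05 (27%, against 22.7% of all genes), of which 4 were higher (6.35% of the 63, against 7.13% of all genes) and 13 were lower (20.6%, against 15.6%). The ER held 7 of these 13 lower genes, which is 50% of its 14 members. All 3 LIRKO arrays lay below all 3 Flox arrays for 9 members (14.3%, against 16.7% of all genes) and above them for 5 (7.94%, against 9.65%). Over all 63 members both shares thus lay near those of all genes. By compartment, LIRKO lay below Flox for 35.7% of the ER, 9.52% of the cytosolic and 0% of the mitochondrial genes. It lay above Flox for 7.14%, 9.52% and 0% of them.

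The 9 members with LIRKO below Flox were 5 ER genes (*Hspa5*, *Dnajb11*, *Dnajc1*, *Pdia4* and *Pdia6*) and 4 cytosolic genes (*Hspa14*, *Dnajc5*, *Cct6a* and *Hspb8*). The 5 with LIRKO above Flox were *Pdia5* of the ER and *Hspa1a*, *Hspa1l*, *Dnajc8* and *Hspb1* of the cytosol. No mitochondrial gene was in either set. Some of these genes, and *Dnajc13*, *Cct3*, *Fkbp5* and *Stip1* below, fall outside the rule for named genes and were chosen after their values were seen.

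One array decided the count. Without LIRKO 1, 38 of the 63 members passed, 29 as lower (46%, against 30% of all genes) and 9 as higher (14.3%, against 20.7%). The 29 were 16 cytosolic (38.1% of that compartment), 8 ER (57.1%) and 5 mitochondrial genes (71.4%). These calls rest on LIRKO 2 and LIRKO 3, the arrays that read low at bright probe sets. After cyclic loess between arrays, which evens out a shift that depends on the signal, 0 members passed, where 0.218% of all genes passed as higher and 0.17% as lower. The medians after cyclic loess were -0.04 for the ER, -0.01 for the cytosol and 0.12 for mitochondria.

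**Figure D1:**
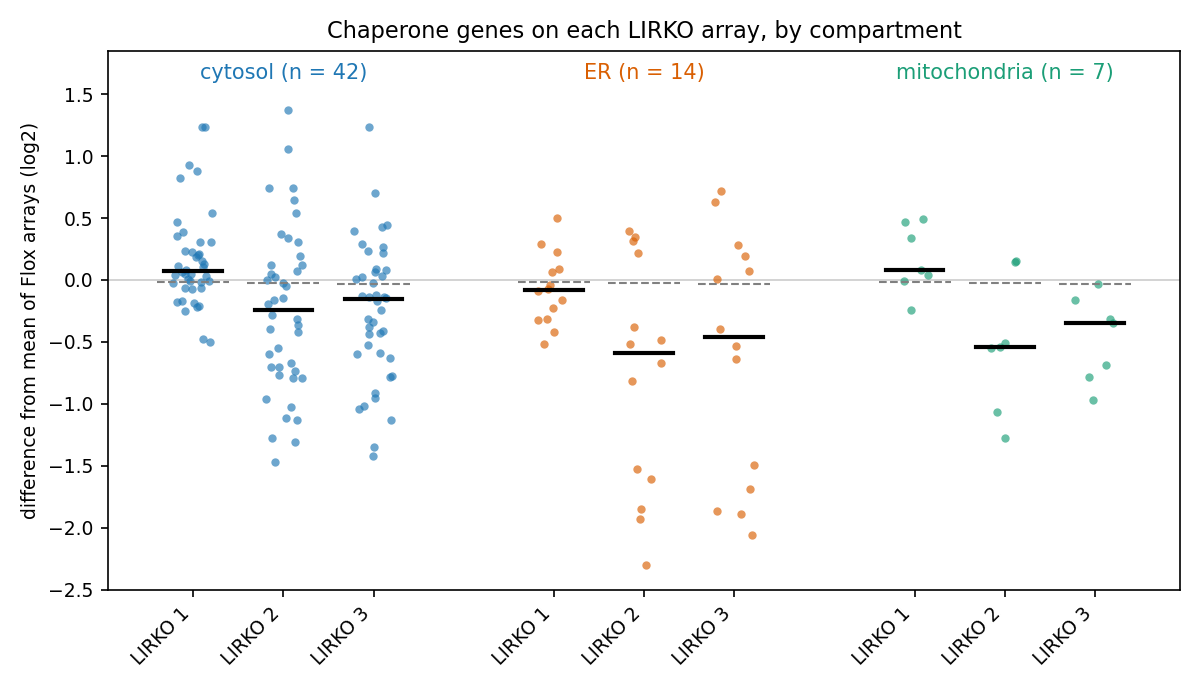
Each chaperone gene as its difference from mean Flox signal (vertical axis, log2) on LIRKO 1, LIRKO 2 and LIRKO 3, for the cytosol (42 genes), the ER (14) and mitochondria (7); points are genes, thick bars their medians and dashed lines the medians of all 8251 genes. The ER medians were -0.08, -0.59 and -0.46 on the 3 arrays, and those of the cytosol were 0.07, -0.24 and -0.16.

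The plot of differences by compartment shows how unlike the LIRKO arrays were. On LIRKO 1, 37 of the 63 members lay above the Flox mean, against 22 on LIRKO 2 and 21 on LIRKO 3. Of all 8251 genes, 3840, 3968 and 3877 did on the 3 arrays. The mitochondrial genes lay at 0.08, -0.54 and -0.35 on the 3 arrays at the median. Relative to the signal groups, the mitochondrial medians became 0.09, 0.22 and 0.02, and the cytosolic ones 0.08, -0.08 and -0.06. The ER medians became -0.07, -0.39 and -0.06, so that the ER genes as a group lay further below their signal group on LIRKO 2 than on the other LIRKO arrays.

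**Figure D2:**
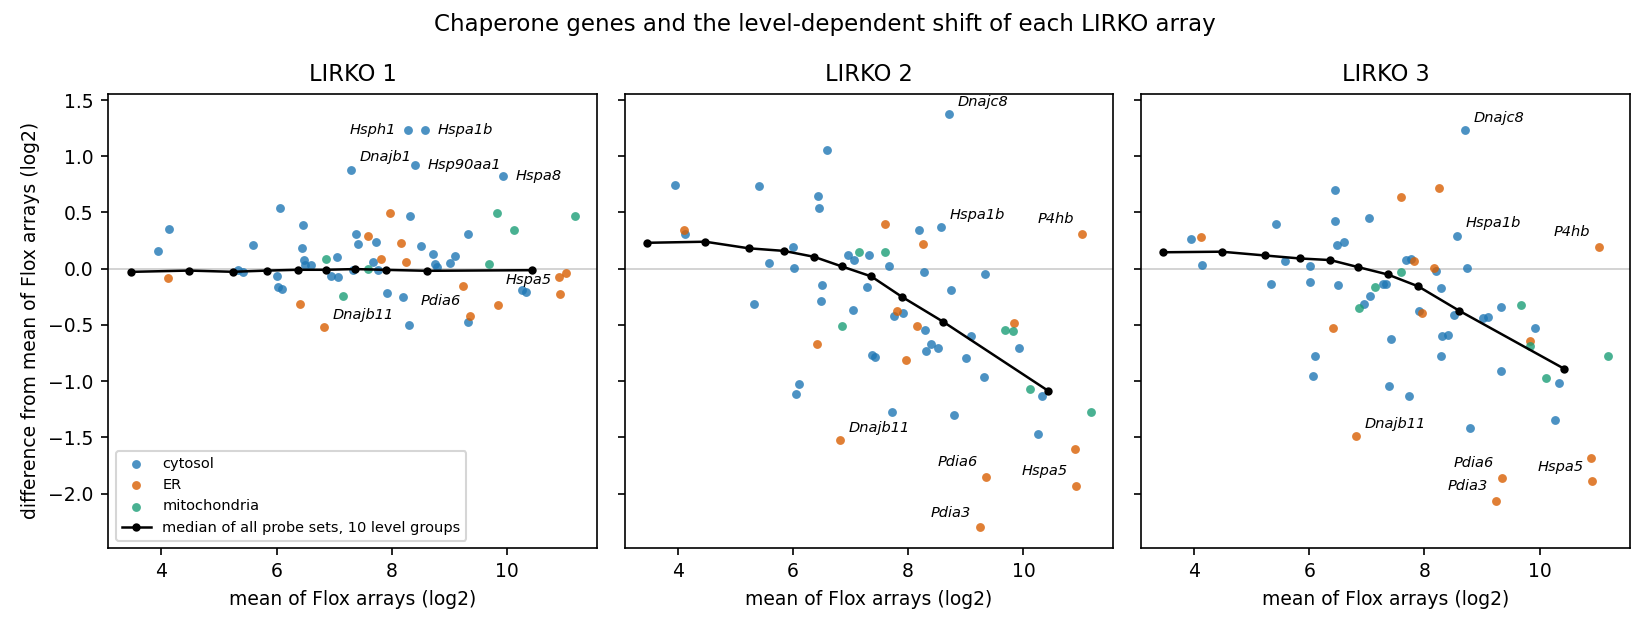
Difference from mean Flox signal (vertical axis, log2) against that signal (horizontal axis, log2) for the 63 chaperone genes, 1 panel for each LIRKO array; the black line joins the medians of all probe sets in 10 groups by signal. The line stays near 0 on LIRKO 1 and drops to -1.09 on LIRKO 2 and -0.89 on LIRKO 3, and *Dnajb11*, *Pdia3*, *Pdia6* and *Hspa5* lie under it on both.

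Among the chaperones of the ER, *Hspa5*, *Hsp90b1*, *Dnajb11*, *Pdia3* and *Pdia6* read lower on LIRKO 2 and LIRKO 3 than on any Flox array, while *P4hb*, *Calr* and *Canx* read higher there. *Hspa5* encodes BiP, the HSP70 of the ER, which also holds the sensors of the unfolded protein response inactive. It read 11.25, 10.69 and 10.81 on Flox 1, Flox 2 and Flox 3, and 10.69, 8.98 and 9.03 on LIRKO 1, LIRKO 2 and LIRKO 3. LIRKO 1 thus stood just under the lowest Flox array and the other LIRKO arrays far under it, which gave -1.35 on the log2 scale (standard error 0.46, limma adjusted p = 0.237). Relative to its signal group, *Hspa5* differed from Flox by -0.21, -0.84 and -0.998 on the 3 LIRKO arrays. After cyclic loess its log2 fold change was -0.73 (adjusted p = 0.212), and without LIRKO 1 it was -1.91 (adjusted p = 2.45e-05).

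*Hsp90b1* encodes GRP94, the HSP90 of the ER. It read 11.05, 10.83 and 10.82 on the Flox arrays and 10.82, 9.29 and 9.21 on the LIRKO arrays, with LIRKO 1 inside the Flox range (log2 fold change -1.12, standard error 0.42, adjusted p = 0.237). Relative to its signal group it differed by -0.06, -0.52 and -0.79 on the LIRKO arrays, and after cyclic loess its log2 fold change was -0.49. Among the J proteins that serve BiP, *Dnajb11*, which encodes ERdj3, had the lowest fold change of the 5 measured. Its Flox values of 7.20, 6.48 and 6.78 stood against 6.30, 5.29 and 5.33 in LIRKO (log2 fold change -1.18, standard error 0.31, adjusted p = 0.237). All LIRKO arrays lay below all Flox arrays. *Dnajb11* lies in a signal group that barely moved on LIRKO 2 and LIRKO 3 (medians 0.02 and 0.01), so that its difference from that group was nearly the whole of it, at -1.55 and -1.50, and -0.51 on LIRKO 1. After cyclic loess the log2 fold change of *Dnajb11* was -1.22 (adjusted p = 0.204). *Dnajc1*, a membrane J protein of the ER, read 6.35, 6.54 and 6.34 in Flox and 6.10, 5.74 and 5.88 in LIRKO (log2 fold change -0.50, standard error 0.14, adjusted p = 0.237). The other probe set of *Dnajc1*, which was dim (Flox mean 3.85), gave 0.18. The other 3 J proteins of the ER, *Dnajb9*, *Dnajc3* and *Dnajc10*, had log2 fold changes between -0.24 and -0.07 by their brightest probe sets. Another probe set of *Dnajc3*, nearly as bright (Flox mean 7.98, against 8.16), gave -0.74, and another of *Dnajb9* gave 0.32.

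The protein disulfide isomerases, which form and rearrange disulfide bonds, were not alike. Their 5 genes had log2 fold changes from -1.51 to 0.44 with a median of -0.48. *Pdia3*, whose product ERp57 works with the lectin chaperones, read 9.53, 8.89 and 9.30 in Flox and 9.08, 6.94 and 7.18 in LIRKO. Its LIRKO 1 value lay within the Flox range, and at -1.51 (log2, standard error 0.55, adjusted p = 0.237) it was the lowest of the 63 members. From its signal group *Pdia3* differed by -0.14, -1.21 and -1.17 on the LIRKO arrays, and after cyclic loess its log2 fold change was -1.25. *Pdia6* read 9.69, 9.10 and 9.26 in Flox and 8.93, 7.50 and 7.49 in LIRKO, without overlap (log2 fold change -1.38, standard error 0.40, adjusted p = 0.237). It lay -0.40, -0.77 and -0.97 from its signal group on the LIRKO arrays, and after cyclic loess its log2 fold change was -1.08. The other probe sets of *Pdia6* gave -1.42 and -0.69. *Pdia4* read 9.92, 9.87 and 9.72 in Flox and 9.51, 9.35 and 9.19 in LIRKO (log2 fold change -0.48, standard error 0.13, adjusted p = 0.237). The groups of *Pdia4* did not overlap either, but its signal group moved further on LIRKO 2 and LIRKO 3 than it did, and after cyclic loess its log2 fold change was 0.03.

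*P4hb*, the gene of the founding protein disulfide isomerase, and the lectin chaperones read the other way. The brightest probe set of *P4hb* read 11.03, 10.97 and 11.07 in Flox and 10.98, 11.34 and 11.22 in LIRKO (log2 fold change 0.16, standard error 0.13, adjusted p = 0.46), whereas its other, far dimmer probe set gave -0.14. From its signal group the brightest probe set differed by -0.03, 1.40 and 1.09 on the LIRKO arrays, and after cyclic loess its log2 fold change was 0.91. *Canx* encodes calnexin, the membrane-bound lectin that holds glycoproteins during folding, and *Calr* encodes its soluble counterpart calreticulin. *Canx* read 8.12, 8.22 and 8.41 in Flox and 8.31, 8.47 and 8.97 in LIRKO (log2 fold change 0.33, standard error 0.19, adjusted p = 0.313). It lay 0.08, 0.69 and 1.09 above its signal group on the LIRKO arrays, and after cyclic loess its log2 fold change was 0.57. *Calr* gave a dim signal of 4.13, 4.18 and 4.04 in Flox and 4.03, 4.46 and 4.40 in LIRKO (log2 fold change 0.18, standard error 0.15, adjusted p = 0.453). The signal group of *Calr* also read above Flox on LIRKO 2 and LIRKO 3, by 0.24 and 0.15, so that *Calr* lay 0.10 and 0.13 beyond it, and its log2 fold change was 0.07 after cyclic loess. The groups overlapped for all 3 genes. *Pdia5* was the 1 ER gene with all LIRKO arrays above Flox, at 0.44 (standard error 0.18, adjusted p = 0.238).

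Promoters of some ER members hold a sequence that the choice of genes did not use. RefSeq windows of 300 bases, from 250 bases before to 50 after the transcription start (build GRCm38.p6), were found for 55 of the 63 members and searched on both strands for the ER stress element, CCAAT-N9-CCACG, where N is any base. It occurred in 6 of the 14 ER genes (42.9%), in 0 of 36 cytosolic and in 0 of 5 mitochondrial genes, and in 37 of the 27025 genes with a window (0.137%). The 250 bases upstream of *Hspa5* and *Hsp90b1* are shown because these genes carry the major lumenal chaperones. They lie at chr2:34771840-34772089 on the plus strand and chr10:86705445-86705694 on the minus strand, written 5′ to 3′ with the fixed bases of each match in capitals.
Hspa5: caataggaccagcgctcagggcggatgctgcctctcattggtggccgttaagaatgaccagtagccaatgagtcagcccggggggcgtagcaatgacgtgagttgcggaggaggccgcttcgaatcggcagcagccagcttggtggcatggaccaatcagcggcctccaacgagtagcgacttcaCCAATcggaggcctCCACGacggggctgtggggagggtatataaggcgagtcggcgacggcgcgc
Hsp90b1: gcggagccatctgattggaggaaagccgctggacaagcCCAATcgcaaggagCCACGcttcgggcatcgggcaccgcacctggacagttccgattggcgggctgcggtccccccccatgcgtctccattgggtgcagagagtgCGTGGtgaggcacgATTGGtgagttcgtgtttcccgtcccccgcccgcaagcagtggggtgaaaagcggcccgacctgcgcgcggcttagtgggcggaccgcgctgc

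*Hspa5* holds 1 match, 65 bases before the start, and *Hsp90b1* holds 2, beginning 212 and 107 bases before it, the second on the opposite strand. The matches of the other 4 genes are given alone, to show that the spacer of 9 bases differs from gene to gene. They begin 98 bases before the start in *Pdia6*, 105 in *Dnajc3*, 145 in *Canx* and 162 in *Calr*, where the match is on the opposite strand.
Pdia6: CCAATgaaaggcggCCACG
Dnajc3: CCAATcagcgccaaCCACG
Canx: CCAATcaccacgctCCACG
Calr: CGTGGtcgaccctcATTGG

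The 6 genes with a match did not read alike in LIRKO. *Hspa5*, *Hsp90b1* and *Pdia6* had log2 fold changes of -1.35, -1.12 and -1.38, while *Dnajc3* was at -0.09 by its brightest probe set (-0.74 by the next), *Calr* at 0.18 and *Canx* at 0.33. In turn *Dnajb11* and *Pdia3*, both below -1.1, had no match within these windows. A match is a description of the letters and shows no binding.

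**Figure D3:**
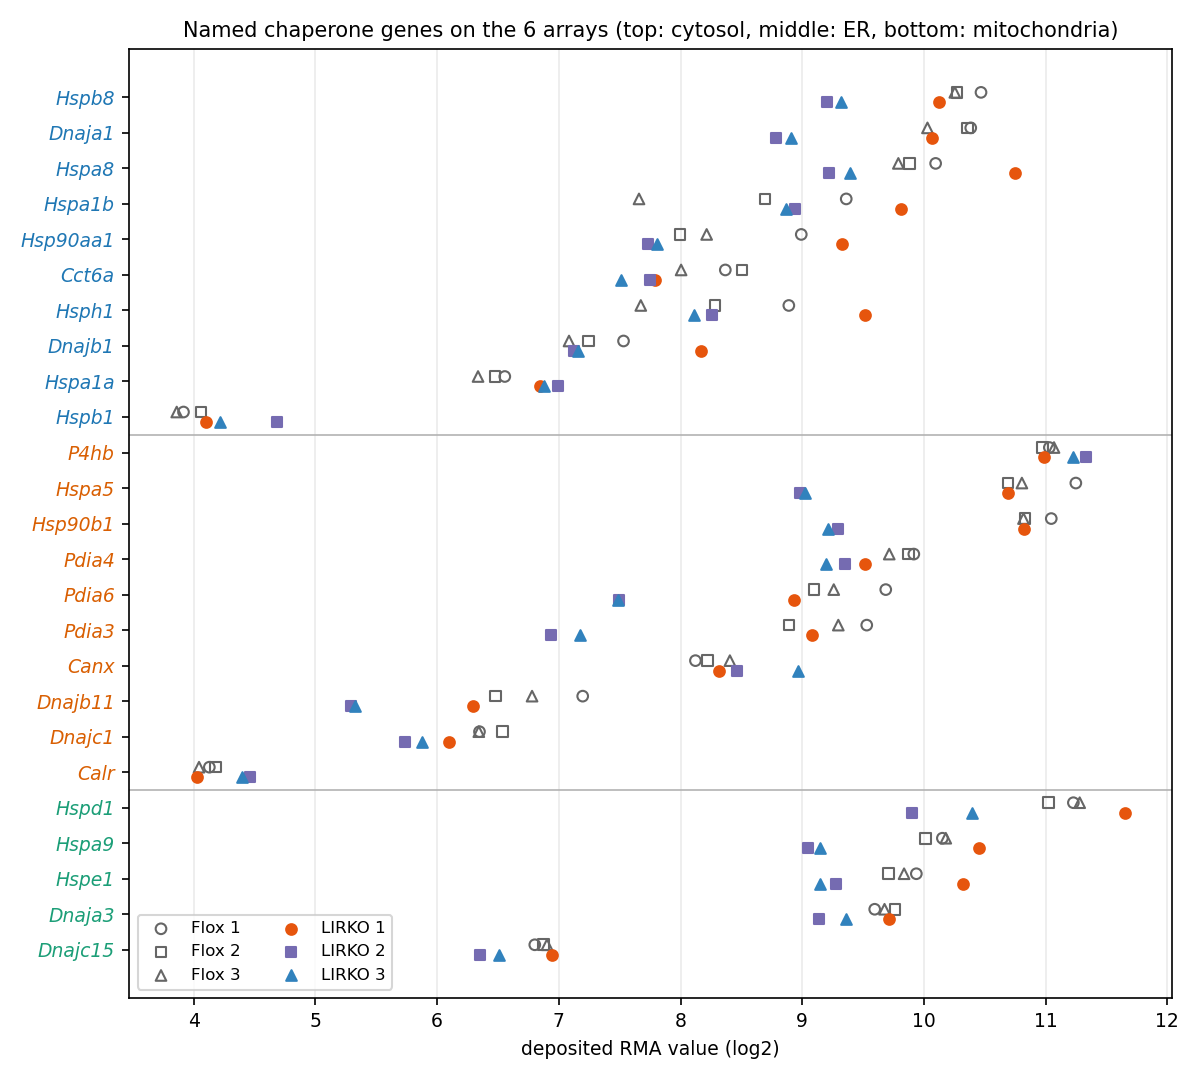
Deposited RMA signal (log2, horizontal axis) of 25 chaperone genes on each of the 6 arrays, with open symbols for Flox and filled ones for LIRKO, and the cytosol above, the ER in the middle and mitochondria below. LIRKO 1 stands to the right of all Flox arrays for *Hspa1b* (9.81), *Hsph1* (9.52), *Hsp90aa1* (9.33), *Hspa8* (10.75) and *Dnajb1* (8.17), and LIRKO 2 and LIRKO 3 stand to the left of all Flox arrays for most ER genes.

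In the cytosol, several heat shock genes stood above the Flox range on LIRKO 1 and not on LIRKO 2 or LIRKO 3. LIRKO 1 was at least 0.5 above the Flox mean and above the Flox range for 6 of the 63 members (9.52%), against 203 of all 8251 genes (2.46%). All 6 were cytosolic, which is 14.3% of the 42: *Hspa1b* at 1.24, *Hsph1* at 1.23, *Hsp90aa1* at 0.92, *Dnajb1* at 0.88, *Hspa8* at 0.82 and *Dnajc13* at 0.54. By the same rule 2 members were lower (3.17%, against 1.5% of all genes), *Dnajb11* at -0.52 and *Cct6a* at -0.50. LIRKO 1 is 1 array, so that this has no replicate check. In limma with the spread of the Flox arrays taken for it as well, 0 members passed on LIRKO 1 alone, with 18 at an unadjusted p under 0.05 (28.6%, against 10.4% of all genes), where 0.509% of all genes passed as higher and 0.327% as lower. The 8 Kupffer cell and macrophage markers were also above the Flox mean on LIRKO 1, as given above, though *Marco* and *Csf1r* lay within the Flox range. Flox 1 was the lowest Flox array for all of these markers but *Marco*. The part of these cells in the LIRKO 1 values was not tested.

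*Hspa1b* encodes the stress-induced HSP70. It read 9.36, 8.69 and 7.66 in Flox and 9.81, 8.94 and 8.87 in LIRKO (log2 fold change 0.63, standard error 0.46, adjusted p = 0.395). The Flox arrays were themselves far apart, with an SD of 0.858 that lay at percentile 99.9 of the 8251 genes, and LIRKO 2 and LIRKO 3 lay between Flox 1 and Flox 3, at 0.37 and 0.29 above the Flox mean and 0.84 and 0.67 above their signal group. *Hsph1*, the gene of HSP110, which restarts the HSP70 cycle by exchanging its nucleotide, read 8.89, 8.28 and 7.67 in Flox and 9.52, 8.26 and 8.11 in LIRKO (log2 fold change 0.35, standard error 0.45, adjusted p = 0.629). Without LIRKO 1 its log2 fold change turned to -0.10. Its Flox SD of 0.608 lay at percentile 99.7.

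*Hsp90aa1* encodes the inducible cytosolic HSP90. It read 8.99, 7.996 and 8.21 in Flox and 9.33, 7.73 and 7.81 in LIRKO (log2 fold change -0.11, standard error 0.47, adjusted p = 0.889), with a Flox SD at percentile 99.6. LIRKO 1 was above all Flox arrays, and LIRKO 2 and LIRKO 3 were below all of them. A second, dimmer probe set gave 0.90. *Hspa8*, the constitutive HSP70 of the cytosol, read 10.10, 9.88 and 9.79 in Flox and 10.75, 9.22 and 9.40 in LIRKO (log2 fold change -0.13, standard error 0.39, adjusted p = 0.834), in the same split. *Dnajb1*, the J protein that partners inducible HSP70, read 7.53, 7.25 and 7.08 in Flox and 8.17, 7.13 and 7.15 in LIRKO (log2 fold change 0.20, standard error 0.30, adjusted p = 0.685), where LIRKO 2 and LIRKO 3 lay within the Flox range. Among the Flox arrays, Flox 1 was the highest for all 5 of these genes. This was not particular to them, since Flox 1 was also the highest for *Hspa5*, *Hsp90b1*, *Dnajb11*, *Pdia3*, *Pdia4* and *Pdia6* of the ER. The Flox SD of *Hspa5*, *Dnajb11*, *Pdia3* and *Pdia6* lay at percentiles 97.2, 98.8, 98.2 and 97.5. That of *Hsp90b1* and *Pdia4* lay at 65.9 and 53.8.

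*Hspa1a*, which lies beside *Hspa1b* and *Hspa1l* on chromosome 17, had close replicates, with an SD of 0.11 in Flox and 0.08 in LIRKO. It read 6.56, 6.48 and 6.34 in Flox and 6.84, 6.99 and 6.88 in LIRKO, with all LIRKO arrays above all Flox arrays (log2 fold change 0.45, standard error 0.12, adjusted p = 0.237). Its differences from Flox were 0.39, 0.54 and 0.43 on the LIRKO arrays, and 0.44 after cyclic loess (adjusted p = 0.202). *Hspa1a* and *Hspa1b* encode nearly identical proteins, so that their probe sets may read both transcripts and the split between them is uncertain. *Hspa1l*, its neighbour, was also above Flox on all LIRKO arrays, at 0.51 (standard error 0.17, adjusted p = 0.237). Over the 9 cytosolic HSP70 and HSP110 genes the median differences from Flox were 0.36, 0.08 and 0.00 on the 3 LIRKO arrays. Relative to the signal groups they were 0.37, 0.38 and 0.35, with 7, 8 and 6 of the 9 above their group.

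The J proteins of the cytosol spread widely, with log2 fold changes from -1.002 to 0.91 over 18 genes and a median of -0.06. *Dnaja1*, a constitutive partner of *Hspa8*, was the lowest. It read 10.39, 10.36 and 10.03 in Flox and 10.07, 8.79 and 8.91 in LIRKO (log2 fold change -1.002, standard error 0.34, adjusted p = 0.237), with LIRKO 1 inside the Flox range. Relative to its signal group it differed by -0.18, -0.38 and -0.46, and after cyclic loess its log2 fold change was -0.46. *Dnajc8*, a J protein found with splicing factors, was the highest by its brightest probe set, at 0.91 (standard error 0.32, adjusted p = 0.237), but its other probe set gave -0.53. The brightest probe set differed from Flox by 0.13, 1.37 and 1.23 on LIRKO 1, LIRKO 2 and LIRKO 3. *Dnajc13* showed the widest split between LIRKO arrays relative to Flox, with 6.03, 6.02 and 6.12 in Flox against 6.6, 4.94 and 5.10 in LIRKO.

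The chaperonin CCT, a ring that folds actin and tubulin, had 9 measured genes with log2 fold changes from -0.90 to 0.06 and a median of -0.30. At the median they lay 0.11 above Flox on LIRKO 1, and the medians on LIRKO 2 and LIRKO 3 were -0.70 and -0.60. Relative to the signal groups these were 0.12, -0.23 and -0.22. *Cct6a* had the smallest p of the subunits by its brightest probe set, with 8.37, 8.51 and 8.005 in Flox and 7.79, 7.75 and 7.51 in LIRKO (log2 fold change -0.61, standard error 0.17, adjusted p = 0.237). The groups did not overlap there, but its other probe set gave -0.08. *Cct3* was the member whose probe sets disagreed most, at -0.90, -0.71 and 0.55.

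Small heat shock proteins hold unfolded proteins in solution until HSP70 takes them over. The 4 genes so named were spread from -0.79 to 0.39. *Hspb8* read 10.47, 10.27 and 10.25 in Flox and 10.12, 9.20 and 9.32 in LIRKO, without overlap (log2 fold change -0.79, standard error 0.25, adjusted p = 0.237). Relative to its signal group it lay close to 0 on LIRKO 2 and LIRKO 3, at -0.04 and -0.12. *Hspb1*, the gene of HSP25, gave a dim signal of 3.92, 4.06 and 3.86 in Flox and 4.10, 4.69 and 4.21 in LIRKO (log2 fold change 0.39, standard error 0.18, adjusted p = 0.249). Its LIRKO arrays were above all Flox arrays.

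The HSP60, HSP10 and HSP70 genes of mitochondria were above Flox on LIRKO 1 and below it on the other LIRKO arrays. *Hspd1* and *Hspe1* encode HSP60 and HSP10, the barrel and the lid of the mitochondrial chaperonin. *Hspd1* read 11.23, 11.02 and 11.28 in Flox and 11.65, 9.90 and 10.40 in LIRKO (log2 fold change -0.53, standard error 0.41, adjusted p = 0.431). *Hspe1* read 9.94, 9.71 and 9.84 in Flox and 10.32, 9.28 and 9.14 in LIRKO (log2 fold change -0.25, standard error 0.31, adjusted p = 0.615). Both were above all Flox arrays on LIRKO 1, by 0.47 and 0.49 over the Flox mean, and below all of them on LIRKO 2 and LIRKO 3. After cyclic loess their log2 fold changes were 0.19 and 0.28.

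*Hspa9*, the HSP70 that pulls proteins into the matrix, showed the same split, with 10.15, 10.02 and 10.18 in Flox and 10.46, 9.05 and 9.15 in LIRKO (log2 fold change -0.57, standard error 0.36, adjusted p = 0.351). Relative to its signal group it differed by 0.35, 0.02 and -0.08. Its J protein partner *Dnaja3* read 9.60, 9.76 and 9.68 in Flox and 9.72, 9.14 and 9.36 in LIRKO (log2 fold change -0.27, standard error 0.17, adjusted p = 0.333). *Dnajc15*, a J protein of the import channel, read 6.80, 6.87 and 6.90 in Flox and 6.94, 6.35 and 6.51 in LIRKO (log2 fold change -0.26, standard error 0.17, adjusted p = 0.361). The remaining *Dnajc4* and *Dnajc11* were at -0.08 and 0.04.

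The same promoter windows were searched for the heat shock element, GAA-NN-TTC-NN-GAA, or its reverse complement TTC-NN-GAA-NN-TTC. It occurred in 4 of the 55 members with a window (7.27%), which were *Hsph1*, *Dnajb6*, *Hspd1* and *Hspe1*, and in 179 of the 27025 genes (0.662%). *Hspd1* and *Hspe1* are neighbours on chromosome 1 that are read in opposite directions, and their windows overlap, so that both hold the same stretch. The 250 bases upstream of *Hspe1*, at chr1:55087898-55088147 on the plus strand, are shown for it, with the fixed bases of 2 overlapping matches in capitals.
Hspe1: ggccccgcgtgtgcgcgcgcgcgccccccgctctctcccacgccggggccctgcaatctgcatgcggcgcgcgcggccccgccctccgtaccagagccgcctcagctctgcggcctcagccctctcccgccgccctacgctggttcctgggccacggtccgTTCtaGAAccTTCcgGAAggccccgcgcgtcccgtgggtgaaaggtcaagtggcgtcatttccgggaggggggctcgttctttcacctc

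Read from *Hspe1* these matches begin 89 and 84 bases before its start, and read from *Hspd1* they begin 144 and 139 bases before that of *Hspd1*. In *Hsph1* the match lies in the transcribed part, and in *Dnajb6* it lies upstream, and their letters are given to show that the spacers differ.
Hsph1: TTCtgGAAagTTC
Dnajb6: GAAtcTTCcgGAA

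Of these 4 genes *Hsph1* was among those at least 0.5 above Flox on LIRKO 1, *Hspd1* and *Hspe1* lay just under that size, and *Dnajb6* differed from Flox by 0.05 there. No window was found for *Hsp90aa1* and *Hspa8*, and the windows of *Hspa1b* and *Dnajb1* held no match to these letters.

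**Figure D4:**
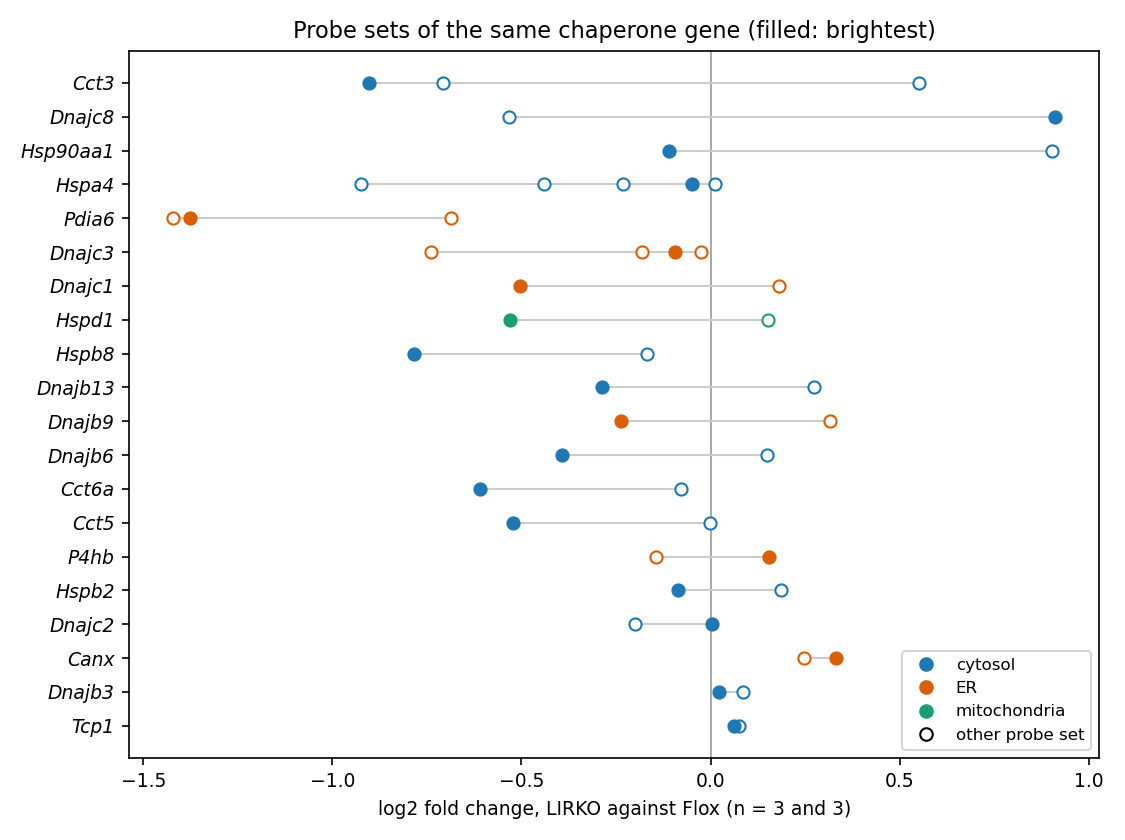
Log2 fold change of LIRKO against Flox (horizontal axis, 3 arrays each) for every probe set of the 20 chaperone genes that have more than 1; filled points are the brightest probe set of a gene, open points the others, and lines join the probe sets of 1 gene. For 12 of the 20 genes the probe sets lie on both sides of 0.

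Probe sets of the same gene often disagreed. Of the 63 members 43 had 1 probe set and 20 had several, and in 12 of these 20 the log2 fold changes differed in sign, with a median range of 0.56 and a largest range of 1.46 in *Cct3*. The values of a gene with several probe sets are therefore those of its brightest one, and *Pdia6*, *Canx* and *Hspb8* are among those whose probe sets had 1 sign. For *Hspd1* the brightest gave -0.53 and the other 0.15.

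Genes that work with chaperones were read from 4 further lists, and 0 genes passed in each by limma (smallest adjusted p = 0.237). At an unadjusted p under 0.05, where all genes gave 22.7%, there were 17 of 25 ER partners (68%), 5 of 14 mitochondrial partners (35.7%), 4 of 22 co-chaperones (18.2%) and 4 of 15 stress regulators (26.7%). The shares of co-chaperones and regulators lay near that of all genes. Of 28 ER folding partners 25 were measured, with a median log2 fold change of -0.64, and 16 were lower at an unadjusted p under 0.05 (64%, against 15.6% of all genes). On LIRKO 1 their median was -0.10, against -0.95 on LIRKO 2 and -0.89 on LIRKO 3, and 10 of the 25 lay in the brightest signal group. Relative to the signal groups these medians were -0.09, -0.25 and -0.31, with 12 of the 25 above their group on LIRKO 2. After cyclic loess the median log2 fold change was -0.40. *Ppib*, which encodes the prolyl isomerase cyclophilin B, read 10.20, 9.62 and 9.94 in Flox and 9.45, 8.03 and 8.15 in LIRKO (log2 fold change -1.38, adjusted p = 0.237). *Erp29*, a lumenal chaperone, and *Sec63*, a J protein of the translocation channel, were at -0.97 and -0.86, also without overlap.

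Of 28 cytosolic co-chaperones 22 were measured, with a median of -0.17. On LIRKO 1, 17 of the 22 lay above the Flox mean, where 3840 of all 8251 genes did. *Chordc1*, an HSP90 partner, read 8.69, 8.58 and 8.53 in Flox and 9.30, 8.91 and 9.12 in LIRKO, with all LIRKO arrays above all Flox arrays (log2 fold change 0.51, standard error 0.14, adjusted p = 0.237). After cyclic loess *Chordc1* passed as higher, at 0.86 (adjusted p = 0.0475). *Fkbp5*, an immunophilin on HSP90, and *Stip1*, which links HSP70 to HSP90, were with *Chordc1* the 3 of this list at least 0.5 above Flox and above its range on LIRKO 1 (0.86, 0.62 and 0.70). That was 13.6% of the list, against 2.46% of all genes. The prefoldin gene *Pfdn2* and *Stub1*, which encodes the ubiquitin ligase CHIP, were at -0.80 and -0.79. On LIRKO 1, LIRKO 2 and LIRKO 3 *Pfdn2* differed from Flox by -0.13, -1.07 and -1.19, and *Stub1* by -0.02, -1.29 and -1.05.

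Of 19 mitochondrial partners 14 were measured, with a median of -0.23. The protease genes *Clpp* and *Htra2* were at -0.69 and 0.80, and *Clpx*, the unfoldase that feeds ClpP, was at 0.48 (adjusted p = 0.237 for each). Of 18 stress regulators 15 were measured, with a median of -0.06. *Xbp1*, a transcription factor of the unfolded protein response, read 9.58, 9.43 and 9.92 in Flox and 9.51, 7.81 and 8.50 in LIRKO (log2 fold change -1.04, adjusted p = 0.237). LIRKO 1 lay inside the Flox range. Relative to its signal group *Xbp1* differed by -0.12, -0.75 and -0.25, and after cyclic loess its log2 fold change was -0.63. *Ddit3*, which encodes CHOP, and *Ppp1r15a*, which encodes GADD34, were at 0.59 and 0.37 (adjusted p = 0.237 for both). Without LIRKO 1, where 50.7% of all genes passed, the genes that passed were 21 of 25 ER partners (84%), 9 of 14 mitochondrial partners (64.3%), 13 of 22 co-chaperones (59.1%) and 8 of 15 regulators (53.3%).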

How the data were processed

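Liver RNA of Flox and LIRKO mice was read on 3 arrays each. Using affy and limma in R, the authors corrected background, normalized and summarised the chips by RMA. The sources used here do not give its version or say if the 6 arrays were normalized in 1 run. The deposited log2 values, 1 for each probe set on each array, were used without further scaling or a filter on dim signals. Of 12488 probe sets, 66 array controls were left out and 12422 tested by limma 3.58.1 (lmFit, eBayes) in R 4.3.3 with Benjamini-Hochberg adjustment over all of them, after the study's methods. The platform annotation gave 1 symbol to 10833, several to 396 and none to 1193. Among those with several, 2 probe sets shared by *Dnajc19* and its pseudogene were tested but not counted as members. The two-tailed t-test without equal variances that the statistics section names is called the methods' t-test here.

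The members, gene lists, tests and alternatives were chosen with earlier results of these data known. Members named by rule, and given with all values, are those past the threshold and the 3 per compartment with the smallest p. To these come the 2 per compartment with the brightest Flox signal and a set of role-defining members. The 3 genes with the smallest p in each related list are named too. Of the latter only *Ppib*, *Chordc1* and *Xbp1* are given with all values. Compartments were assigned by hand from background knowledge. The measure relative to a signal group is a gene's difference from the Flox mean less the median difference, on the same array, of its group among 10 equal groups of probe sets by mean Flox signal. Alternatives were renewed quantile normalization, cyclic loess, a filter on probe sets under the 25th percentile, an intensity trend with robust eBayes, the methods' t-test, the replicate block, averaging all probe sets of a gene, leaving out each array, and leaving out LIRKO 2 and LIRKO 3 together. The limma test was checked on simulated data. Promoter windows and gene names came from RefSeq (GRCm38.p6). Nothing in the labels says that arrays of a group came from separate cohorts, so p-values measure only the spread between these pools. Tables were made with pandas 2.3.3 and numpy 2.4.6 and figures with matplotlib 3.10.9, under Python 3.11.15.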

Additional observations from a re-analysis of the deposited data

How the results depend on the processing

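LIRKO 1 set the counts more than any other array, and signals that sink with brightness on LIRKO 2 and LIRKO 3 limit what the bright members can show. The count of 0 members past the threshold held under all alternatives but 1. Leaving out 1 array at a time gave 0 to 38 members, with 38 without LIRKO 1. It also gave 2 to 6095 probe sets in place of 16 and 2 to 4181 genes in place of 10 (6095 and 4181 without LIRKO 1), and 0 to 13 co-chaperones, 0 to 21 ER partners, 0 to 9 mitochondrial partners and 0 to 8 stress regulators in place of 0. Cyclic loess gave 40 probe sets, 32 genes and 1 co-chaperone, renewed quantile normalization 17 genes, and leaving out LIRKO 2 and LIRKO 3, with the error taken from Flox only, 90 probe sets and 69 genes. The methods' t-test gave 0 probe sets and 0 genes, with 728 probe sets at an unadjusted p under 0.05, against 2602 by limma. The cause of these shifts was not tested.

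The ER median of -0.36 became -0.044 with cyclic loess and -0.082 without LIRKO 2 and LIRKO 3, where the cytosolic median of -0.09 became 0.070. The mitochondrial median of -0.26 became 0.10 with renewed quantile normalization, 0.12 with cyclic loess and 0.083 without LIRKO 2 and LIRKO 3. Leaving out 1 array kept the sign of all 3 medians.

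Directions turned for 12 of the 25 members named by rule. Without LIRKO 2 and LIRKO 3 these were *Calr* (-0.087), *P4hb* (-0.041), *Hspa8* (0.82), *Hsp90aa1* (0.92), *Hspa9* (0.34), *Dnaja3* (0.039), *Dnajc15* (0.083), *Hspd1* (0.47) and *Hspe1* (0.49). With cyclic loess they were *Pdia4* (0.026), *Hspa8* (0.42), *Hsp90aa1* (0.11), *Dnaja3* (0.22), *Hspd1* (0.19) and *Hspe1* (0.28), and with renewed quantile normalization *Hspa8* (0.23), *Hsp90aa1* (0.0094), *Dnaja3* (0.10), *Hspd1* (0.10) and *Hspe1* (0.12). The mean of its probe sets turned *Hsp90aa1* to 0.40. Leaving out 1 array gave -0.61 to 0.15 for *Hspa8*, -0.63 to 0.18 for *Hsp90aa1*, -0.10 to 0.65 for *Hsph1* and -0.15 to 0.37 for *Dnajb1*.

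Whether the replicate numbers pair the arrays cannot be told from these values. The deviations of same-numbered arrays correlated at 0.32, 0.40 and 0.09, and those of arrays with different numbers at -0.37 to 0.17. LIRKO 3 correlated better with Flox 2 than with its own number. With the replicate block 11 probe sets, 7 genes and 0 members passed. At an unadjusted p under 0.05 by limma it gave 3246 probe sets and 19 members, against 2602 and 17 without it.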
